A study of Mus musculus with 6 samples.

Results

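Bone morphogenetic proteins (BMPs), growth and differentiation factors (GDFs) and activins are secreted ligands of the TGF-beta superfamily. They bind paired type I and type II serine-threonine kinase receptors, which phosphorylate SMAD proteins that enter the nucleus, and soluble antagonists such as follistatin and gremlin trap the ligands before they reach a receptor. In skeletal muscle, fibroadipogenic progenitors (FAPs), the mesenchymal cells between the fibres that can become fibroblasts or adipocytes, are a known source of several of these ligands and antagonists. The genes described here are 10 of the 33276 gene symbols in the count table: the GDF and BMP ligands Gdf10, Gdf15, Bmp2, Bmp4, Bmp5, Bmp6 and Bmp7, the activin subunit gene Inhba, and the antagonists Grem1 and Fst. They were chosen by name with their counts in circulating and muscle FAPs in view, so the differences between those groups are given as descriptions of the members and not as tests.

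The series holds RNA-seq counts from 3 libraries of FAPs isolated from peripheral blood, called circulating FAPs, and 3 libraries of FAPs from muscle. All 6 came from mice with middle cerebral artery occlusion (MCAO), a stroke model in which a brain artery is blocked. The labels give no age, sex, genetic background, time after occlusion, muscle or sorting markers, and no libraries of mice without the occlusion were analysed here. They do not say whether the libraries of a group came from separate mice, so the spread between libraries may be technical.

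Totals were 5522193 to 13813329 counts in circulating and 17532558 to 23424039 in muscle libraries, of which 18S ribosomal RNA, listed under a pair of symbols, took 42.9% to 60.1% in circulating libraries and 27.8% to 32.3% in muscle libraries. Reads at sensory receptor genes that are silent outside sensory tissue gave a background of 0.801 to 1.20 reads per kilobase of exon and per 1000000 reads without 18S in circulating libraries and 0.272 to 0.429 in muscle libraries. The summed level of 6 FAP markers (Pdgfra, Ly6a, Cd34, Dcn, Lum and Col1a1) was 6910 to 10370 CPM (counts per 1000000 of a library, TMM-scaled) in circulating and 14730 to 20340 CPM in muscle libraries, and none of these markers was at 0 in either group. Dcn was the largest part, at a mean of 4309 CPM in circulating and 9816 CPM in muscle libraries. Of the 6 markers, 4 were lower in every circulating library than in any muscle library, as were 11.4% of all genes tested. Ly6a and Cd34 overlapped, with log2 fold changes of -0.49 and -0.23 (circulating minus muscle). The summed level of 8 leukocyte markers was 90.1 to 117.6 CPM in circulating FAPs against 13.9 to 32.0 CPM in muscle libraries, without overlap. Of the 8 markers, 3 were higher in every circulating library than in any muscle library, as were 16.2% of all genes tested. The largest leukocyte marker differed by library: S100a9 at 69.8 CPM in circulating replicate 1, Csf1r at 32.3 CPM in replicate 2 and S100a8 at 61.4 CPM in replicate 3. The sums of the endothelial, mural, satellite cell, muscle fibre, Schwann, tendon, platelet and red cell markers overlapped between the groups. The part of these marker differences in the results on the 10 genes was not tested. In bulk libraries, fewer cells of a type that expresses a gene and less of its RNA per cell cannot be told apart.

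Promoter windows of the members are shown for Gdf10, the member with the greatest difference between the groups, and for Inhba, the next. RefSeq windows of the 250 bases before the annotated start were at hand for 7 of the 10 members, on build GRCm38.p6, which is not the build GRCm39 of the counts. The Gdf10 window is chr14:33923337-33923586 on the plus strand, and the Inhba window is chr13:16011601-16011850 on the plus strand. Capitals mark the only match among 5 motifs searched on both strands: TGACTCA (AP-1 site), TGACGTCA (cyclic AMP response element), GGCGCC (an element rich in G and C that BMP SMADs bind), TATAAA (core promoter box bound by TBP) and CCAAT (bound by NF-Y).
Gdf10: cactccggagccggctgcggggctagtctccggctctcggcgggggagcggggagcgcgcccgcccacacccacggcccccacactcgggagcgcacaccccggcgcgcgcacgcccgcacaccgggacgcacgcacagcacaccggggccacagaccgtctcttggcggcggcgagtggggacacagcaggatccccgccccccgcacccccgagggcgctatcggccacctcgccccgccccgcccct
Inhba: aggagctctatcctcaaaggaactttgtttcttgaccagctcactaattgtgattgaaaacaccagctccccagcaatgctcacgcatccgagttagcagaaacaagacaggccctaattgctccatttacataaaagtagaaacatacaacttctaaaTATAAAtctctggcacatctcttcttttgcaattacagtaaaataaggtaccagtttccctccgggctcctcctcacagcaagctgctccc
The Gdf10 window was 78.8% G and C and held none of the 5 motifs. The Inhba window was 43.2% G and C, against a median of 52.4% over 32851 windows, and held TATAAA from 91 to 86 bases before the start. TATAAA was present in 12.4% of all windows, the AP-1 letters in 4.46%, the cyclic AMP element in 1.55%, the GC-rich element in 9.59% and CCAAT in 33.8%. Of the other members, the windows of Bmp4, Bmp5 and Bmp6 held none of the motifs, Gdf15 held CCAAT at 1 of its annotated starts, and Grem1 held GGCGCC and CCAAT. A match in these letters is no measure of binding.

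Gdf10, also called BMP3B, is a BMP3-like ligand that FAPs of resting muscle are known to express. It was at 19.2, 10.2 and 9.55 CPM in circulating replicates 1, 2 and 3, against 127, 287 and 328 CPM in muscle replicates 1, 2 and 3. Every circulating library lay below every muscle library, and muscle replicate 1 was the lowest of its group. The means were 13.0 ± 5.38 CPM in circulating FAPs against 247 ± 106 CPM in muscle FAPs (SD, n = 3 each), a fitted log2 fold change of -4.25 ± 0.56 (SE, circulating minus muscle), or 19.0-fold lower. Gdf10 remained above background in the circulating libraries, at 3.96 to 8.0 times the reads expected there for its exon length, against 94.9 to 298 times in the muscle libraries. Pdgfra, the receptor gene used to recognise FAPs, was also lower in circulating libraries, at 191 to 221 CPM against 456 to 849 CPM in muscle libraries. Per kilobase, the ratio of Gdf10 to Pdgfra within a library, from which scaling cancels, was 0.0951 to 0.167 in circulating and 0.288 to 1.21 in muscle libraries. Gdf10 was thus lower in circulating libraries relative to Pdgfra as well, without overlap. Ratios to Pdgfra, here and below, may not hold for another FAP marker. Pdgfra had a log2 fold change of -1.60, against -0.49 for Ly6a and -0.23 for Cd34, which overlapped between the groups. Ratios to those markers were not computed.

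Inhba encodes the subunit that dimerises into activin A. It was at 6.13, 7.19 and 15.2 CPM in circulating replicates 1, 2 and 3, against 63.0, 33.5 and 64.4 CPM in muscle replicates 1, 2 and 3. All 3 circulating libraries lay below all 3 muscle libraries, with a log2 fold change of -2.50 ± 0.65 (SE). Circulating replicates 1 and 2 held 84 and 54 Inhba reads, 2.08 and 2.26 times their background, and circulating replicate 3 held 138 reads, 5.82 times its background, against 19.0 to 47.7 times in muscle libraries. Unlike for Gdf10, the ratio to Pdgfra overlapped between the groups, at 0.0435 to 0.123 in circulating and 0.115 to 0.192 in muscle libraries. Pdgfra was itself lower in circulating libraries, and ratios of Inhba to other FAP markers were not computed.

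Fst encodes follistatin, which binds activins and myostatin and blocks their access to receptors. It was the most abundant of the 10 genes per kilobase of exon in muscle, and by its mean also in circulating FAPs. Fst was at 244, 30.7 and 77.0 CPM in circulating replicates 1, 2 and 3, against 364, 382 and 316 CPM in muscle replicates 1, 2 and 3. The muscle libraries lay close together, within 1.21-fold, whereas the circulating libraries spread over 7.94-fold, with replicate 1 the highest. For comparison, the median gene of at least 20 CPM spread over 2.86-fold in circulating and 1.96-fold in muscle libraries. The log2 fold change was -1.59 ± 0.63 (SE), and without circulating replicate 1 it was -2.78. Relative to Pdgfra, Fst was at 0.351 to 2.41 in circulating and 0.936 to 1.83 in muscle libraries, and the groups overlapped. Nor did the ratio of Fst to its ligand subunit Inhba separate the groups, at 5.96 to 55.5 in circulating and 6.84 to 15.9 in muscle libraries.

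Bmp2, an osteogenic BMP, was not separated between the groups. It was at 44.7, 87.3 and 86.1 CPM in circulating replicates 1, 2 and 3, against 55.0, 40.1 and 48.8 CPM in muscle replicates 1, 2 and 3, and circulating replicate 1 lay within the muscle range. The log2 fold change was 0.60 ± 0.50 (SE). Bmp2 was far above background everywhere, at 27.3 to 59.4 times in circulating and 40.8 to 65.0 times in muscle libraries. Relative to Pdgfra it was at 0.571 to 1.29 in circulating and 0.182 to 0.262 in muscle libraries, without overlap. Pdgfra was itself lower in circulating libraries, so this ratio alone does not show more Bmp2 there.

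**Figure D1:**
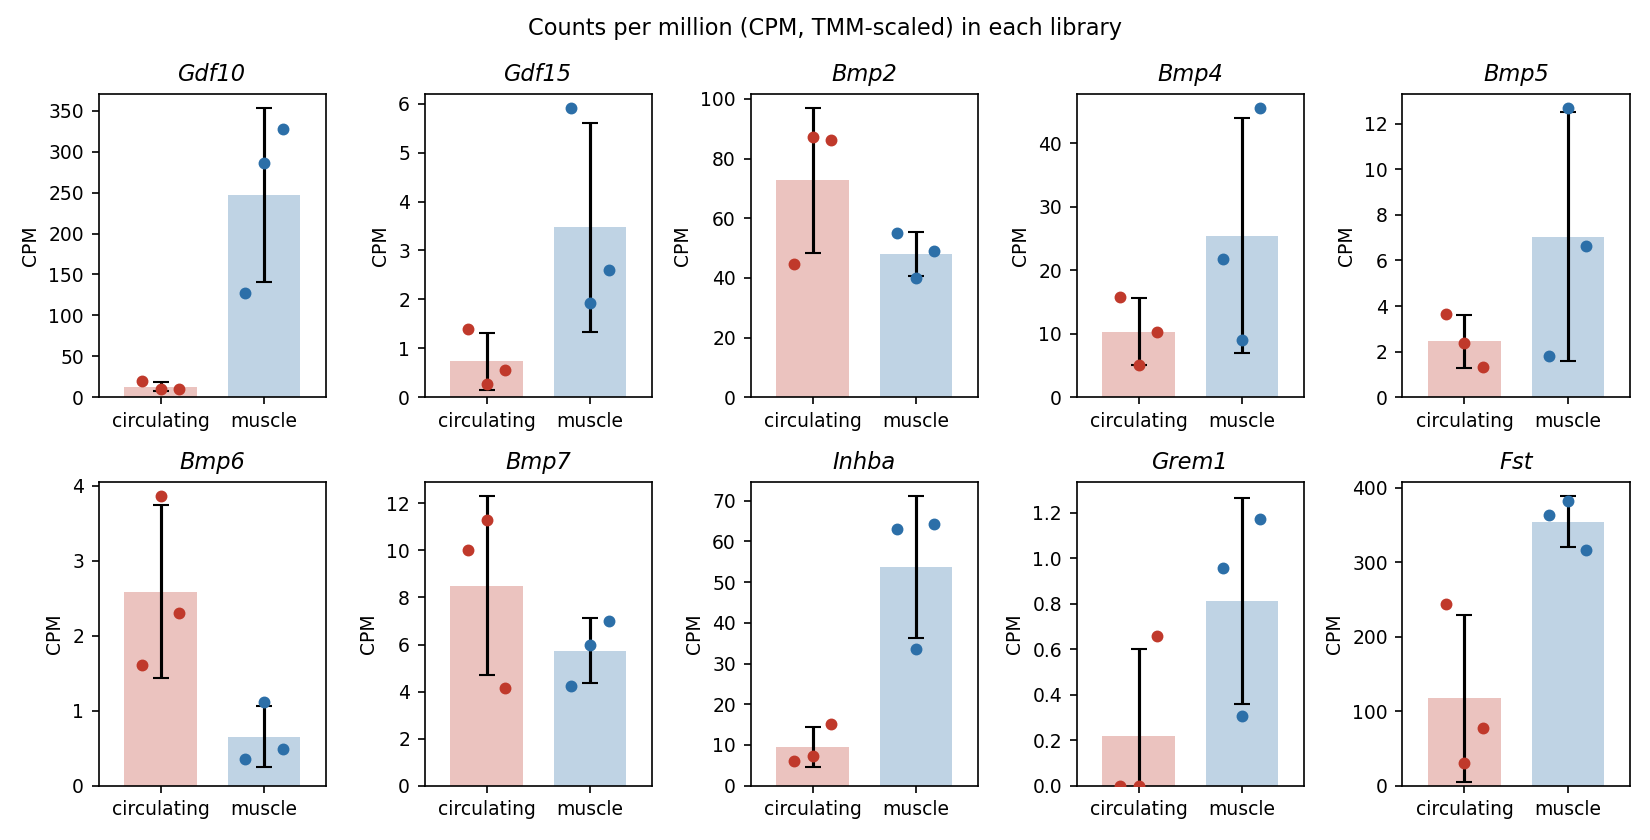
CPM (TMM-scaled) of the 10 genes, 1 panel a gene with its own axis from 0; bars and error bars are the mean and SD of 3 libraries, and points are libraries in replicate order, circulating left and muscle right. Gdf10, Inhba and Fst lie lower in every circulating library than in any muscle library, and Bmp2 overlaps.

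Bmp4, a ligand of the same subgroup as Bmp2, varied 5.04-fold within muscle. It was at 15.8, 5.06 and 10.2 CPM in circulating replicates 1, 2 and 3, against 21.8, 9.04 and 45.6 CPM in muscle replicates 1, 2 and 3. Muscle replicate 2 lay below circulating replicates 1 and 3, and the log2 fold change was -1.30 ± 0.78 (SE). Bmp4 stood 4.53 to 15.2 times over background in circulating and 14.6 to 95.9 times in muscle libraries. Bmp4 shares 89 of its 2248 exonic bases in the GENCODE M21 annotation with the opposite-strand gene Gm15217, which had at most 11 reads in any library.

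The remaining members were low in both groups. Bmp7, Bmp5 and Bmp6 belong to a subgroup of closely related BMPs. Bmp7 was at 9.997, 11.3 and 4.17 CPM in circulating replicates 1, 2 and 3, against 4.24, 5.99 and 6.99 CPM in muscle replicates 1, 2 and 3, with overlapping groups. Its log2 fold change was 0.56 ± 0.63 (SE), and it stood 2.55 to 5.67 times over background in circulating and 4.11 to 8.23 times in muscle libraries. Bmp5 was at 1.32 to 3.65 CPM in circulating FAPs against 1.79 to 12.7 CPM in muscle libraries, also overlapping, with 7.08-fold between the muscle libraries. In circulating libraries Bmp5 was at 0.803 to 1.97 times background, so its level there could not be separated from background. Bmp5 shares 1878 of its 4025 exonic bases in GENCODE M21 with the opposite-strand gene Gm26903, for which no count was analysed here, and Fst shares 115 of 4589 with Gm47040, likewise.

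Bmp6, known in the liver for its part in iron sensing, was the only member higher in every circulating library than in any muscle library. It had 22, 29 and 21 reads in circulating replicates 1, 2 and 3, against 6, 22 and 10 reads in muscle replicates 1, 2 and 3, which gave 1.61, 3.86 and 2.31 CPM against 0.358, 1.12 and 0.489 CPM. The log2 fold change was 1.95 ± 0.63 (SE). These counts lay at 0.894 to 1.99 times background in circulating and 0.358 to 1.04 times in muscle libraries, and the background itself was higher in every circulating library. Bmp6 also shares 224 of its 3900 exonic bases with the opposite-strand gene Txndc5, which had 464 to 914 reads a library, and the labels do not state that strand was used in counting. Of the tested genes under 2 CPM, the median log2 fold change was 0.77.

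Gdf15, a stress-induced ligand that signals through the hindbrain receptor GFRAL, had 19, 2 and 5 reads in circulating replicates 1, 2 and 3, against 99, 38 and 53 reads in muscle replicates 1, 2 and 3. These were 1.39, 0.266 and 0.549 CPM in circulating against 5.91, 1.93 and 2.59 CPM in muscle libraries, without overlap, and the log2 fold change was -2.16 ± 0.71 (SE). Gdf15 lay at 0.289 to 1.63 times background in circulating and 3.78 to 12.4 times in muscle libraries. Grem1, a BMP antagonist, had no read in circulating replicates 1 and 2 and 6 reads in replicate 3, against 16, 6 and 24 reads in muscle replicates 1, 2 and 3. A count of 0 allows up to 0.219 CPM in circulating replicate 1 and 0.399 CPM in circulating replicate 2 (3 counts, counting error only). Grem1 did not pass the filter on low counts, and at 0 to 0.389 times background in circulating and 0.266 to 1.34 times in muscle libraries it was not detectable above background in either group at this depth.

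**Figure D2:**
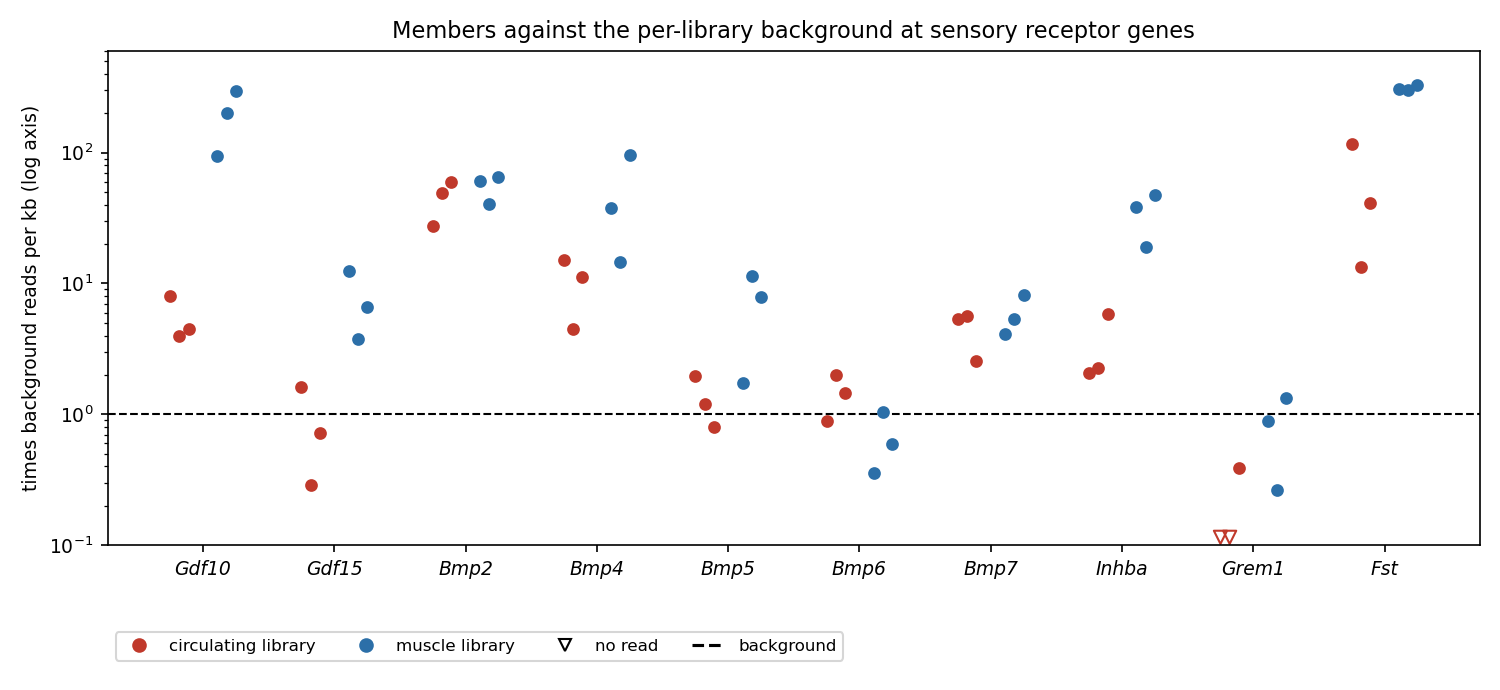
Multiples of background, that is reads over those a silent gene of the same exon length would give, for each member and library on a log axis; the dashed line is the background, triangles are libraries with no read, and circulating libraries stand left of muscle libraries. Fst, Bmp2, Bmp4 and Gdf10 lie at 3.96 times background or more in every library, whereas Bmp6 and Grem1 lie around or under 1 in most.

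The order of the members per kilobase of exon differed between the groups: Gdf10 was in place 4 in circulating and 2 in muscle FAPs, and of the 10 members only Fst had the same place in both. In circulating FAPs the order of mean levels was Fst (25.6 ± 24.5 CPM per kilobase), Bmp2 (20.5 ± 6.82), Bmp4 (4.601 ± 2.38), Gdf10 (2.49 ± 1.03), Bmp7 (2.11 ± 0.945) and Inhba (1.49 ± 0.772), followed by Bmp6, Bmp5, Gdf15 and Grem1 at under 0.7 (SD, n = 3). Of these neighbours only Bmp2 and Bmp4 did not overlap. In muscle FAPs it was Fst (77.2 ± 7.42), Gdf10 (47.5 ± 20.4), Bmp2 (13.5 ± 2.11), Bmp4 (11.3 ± 8.25) and Inhba (8.39 ± 2.73), followed by Gdf15, Bmp5, Bmp7, Grem1 and Bmp6 at under 1.9. There Fst and Gdf10, Gdf10 and Bmp2, Inhba and Gdf15, and Bmp7 and Grem1 did not overlap, and the other neighbours did.

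Within each library, Gdf10 took 4.26% ± 0.663 of the reads per kilobase over the 10 genes in circulating and 28.4% ± 9.90 in muscle FAPs (SD, n = 3). Bmp2 took 15.3%, 59.7% and 46.4% across circulating replicates 1 to 3, but 10.8%, 6.84% and 7.58% across muscle replicates 1 to 3. The shares of a library add to a fixed total, so lower levels of Gdf10 and Fst raise the Bmp2 share. The CPM of Bmp2 overlapped between the groups. Fst took 64.9%, 16.3% and 32.2% in circulating against 55.2%, 50.5% and 38.0% in muscle libraries, so that Fst led in circulating replicate 1 and Bmp2 in circulating replicates 2 and 3. The ratio of Bmp2 to Gdf10 per kilobase was 3.42, 12.5 and 13.2 across circulating replicates 1 to 3, but 0.634, 0.205 and 0.218 across muscle replicates 1 to 3. Bmp2 thus exceeded Gdf10 in all 3 circulating libraries, and Gdf10 exceeded Bmp2 in all 3 muscle libraries.

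**Figure D3:**
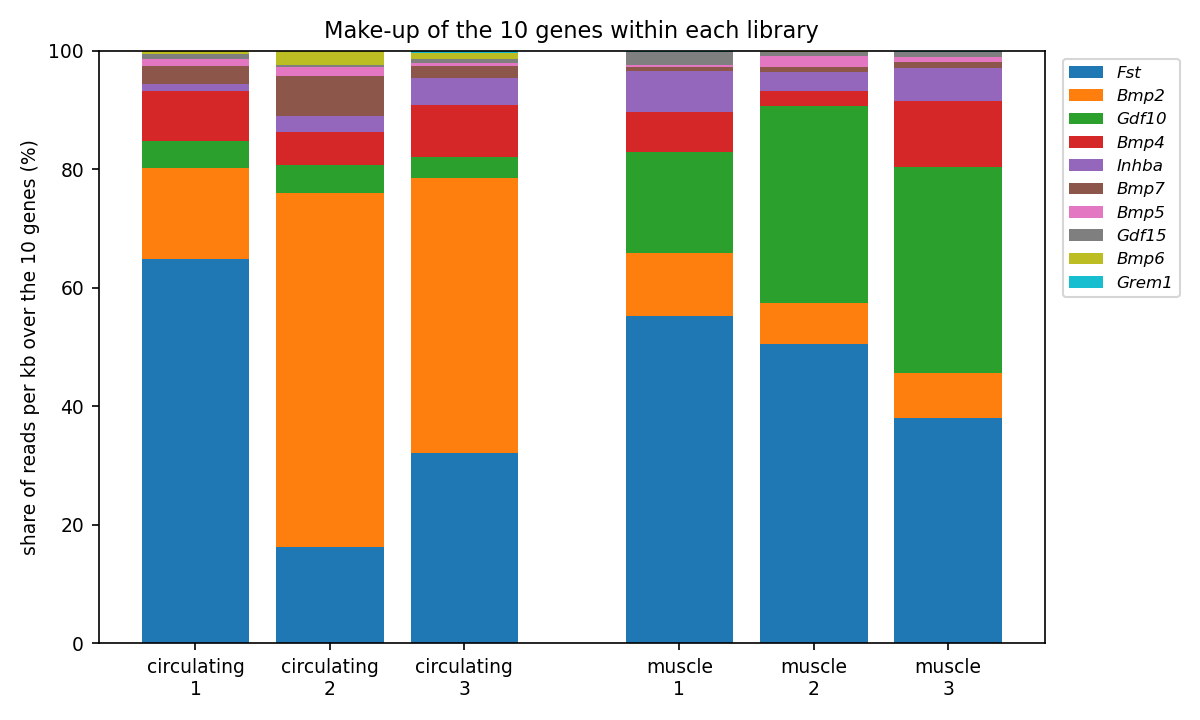
Share of each of the 10 genes in their summed reads per kilobase of exon, 1 bar a library, circulating left and muscle right. The Gdf10 share is 3.52% to 4.78% in circulating and 17% to 34.8% in muscle libraries, and the Bmp2 share is higher in each circulating library than in any muscle library. Shares of a library add to a fixed total, and the CPM of Bmp2 overlapped between the groups.

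Of the 10 members, 9 were tested in the fit across 20248 genes, 6 with a negative and 3 with a positive log2 fold change, and Gdf10 alone was called, among the 21 genes lower in circulating FAPs (0.104% of genes tested; 1 gene, or 0.00494%, was higher). The choice of the members used this contrast, so nothing is read from these counts. With DESeq2, Gdf10, Inhba and Gdf15 were called lower, where 9.67% of all genes with an adjusted p were lower and 1.13% higher. Without overlap between the groups 4 members were lower and 1 higher, as were 11.4% and 16.2% of all genes tested. The signs of all 9 tested members held under the 15 other settings tried. The sizes moved with scaling: on factors from abundant genes, which moved the median of all genes by 0.74, Gdf10 had a log2 fold change of -3.54, Inhba -1.69, Fst -0.97, Bmp4 -0.54 and Bmp2 1.42, and Gdf10 was no longer called.

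**Figure D4:**
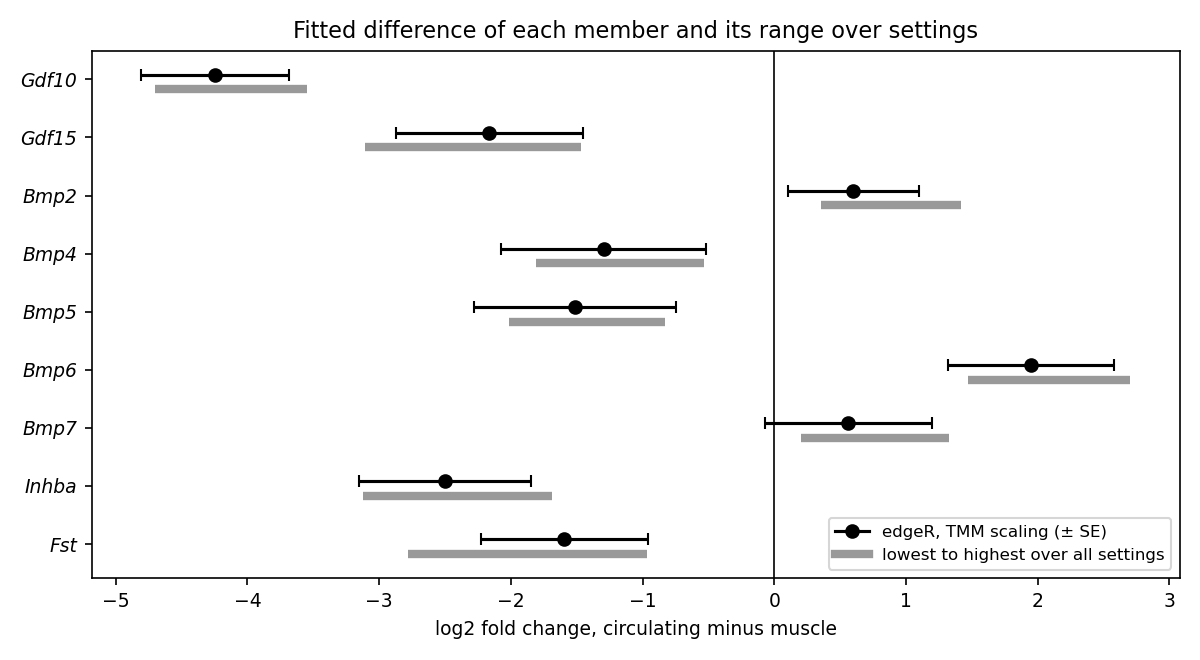
Log2 fold change (circulating minus muscle) of the 9 tested members, points with SE from edgeR with TMM scaling, and grey bars from the lowest to the highest value over the other settings and this one. Gdf10 spans -4.71 to -3.54 and no bar crosses 0.

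The pattern of Gdf10 over the 6 libraries was compared with that of 4735 other genes of at least 20 CPM, by the root mean square difference of log2 CPM centred on each gene's mean. The closest was Mgp, whose product, matrix Gla protein, keeps soft tissue from calcifying, at 0.50. It was at 312, 247 and 202 CPM in circulating replicates 1, 2 and 3, against 2727, 2677 and 3773 CPM in muscle replicates 1, 2 and 3. Katna1, a microtubule-severing katanin subunit (0.54), the matrix protein gene Matn2 (0.57), Lsmem1 (0.58) and the RNA-binding protein gene Hnrnph1 (0.59) followed. Within the family, Id2 ranked 9, Acvr2a 41, Bmper 109, Inhba 201, Fst 310 and Bmp2 4374 of the 4735. Since Gdf10 differed so much between the groups, this ranking mostly follows the difference between circulating and muscle libraries. The closest genes ran from a log2 fold change of -4.37 (Lsmem1) to -3.06 (Hnrnph1). The members were chosen with that contrast in view, so the ranks are a description and no separate result.

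The other genes of the pathway were taken as 5 role lists of 82 genes, of which 67 passed the filter on low counts. None passed the edgeR test at an adjusted p of 0.05 over all genes, in either direction. At an unadjusted p under 0.05, 16 were lower and 4 higher, against 9.64% and 9.71% of all genes tested. DESeq2 called 9 of the 52 with an adjusted p lower and 0 higher, against 9.67% and 1.13% of all genes with an adjusted p. At 20 CPM or more it called 7 of 27 pathway genes lower, against 707 of 4677 genes. Log2 fold changes were negative for 41 of the 67 pathway genes, against 9211 of all 20248 genes tested. At 20 CPM or more they were negative for 23 of 27 pathway genes, against 3709 of all 4736 genes. The sign counts of the role lists below are to be read beside these shares. The median log2 fold change was -0.33, against 0.15 over all genes tested (0.48 and 0.89 with scaling on abundant genes), and for the 27 pathway genes of at least 20 CPM it was -1.13, against -0.65 over the 4736 genes of that level.

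The BMP target factors are read first, since the Id proteins, which block basic helix-loop-helix factors, are induced by BMP SMADs in many cells. Id2 was at 24.8, 9.32 and 14.7 CPM in circulating replicates 1, 2 and 3, against 162, 149 and 150 CPM in muscle replicates 1, 2 and 3. Its groups lay far apart, with a log2 fold change of -3.23 ± 0.53 (SE, edgeR adjusted p = 0.0613), the lowest adjusted p of the pathway. Over the 15 other settings that adjusted p ran from 2.81e-07 with DESeq2 to 0.225 without muscle replicate 3. Id3 was at 275, 134 and 70.9 CPM in circulating against 352, 351 and 508 CPM in muscle libraries (-1.34 ± 0.49, edgeR adjusted p = 0.204). Id4, chosen after its values were seen, was at 6.48 ± 4.002 CPM in circulating FAPs against 32.8 ± 2.61 CPM in muscle FAPs (SD, n = 3; edgeR adjusted p = 0.170). Id1 overlapped between the groups, at 35.2, 4.92 and 14.5 CPM in circulating against 10.5, 14.9 and 27.1 CPM in muscle libraries (0.06 ± 0.80, edgeR adjusted p = 0.973). The 9 tested members of this list had 7 negative values and a median of -1.15, which was -0.52 with scaling on abundant genes.

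Receptors and coreceptors had 12 negative and 6 positive log2 fold changes among 18 tested, with a median of -0.83, which was -0.18 with scaling on abundant genes. Tgfbr3, the betaglycan coreceptor that also binds inhibin, was at 298 ± 70.0 CPM in circulating FAPs against 415 ± 84.3 CPM in muscle FAPs (SD, n = 3; -0.48 ± 0.34, edgeR adjusted p = 0.430). Rgmb, a BMP coreceptor, was at 45.5 ± 18.5 and 138 ± 72.9 CPM (edgeR adjusted p = 0.198), and Eng, the endoglin coreceptor, at 37.7 ± 4.59 and 47.4 ± 15.3 CPM (edgeR adjusted p = 0.735), circulating before muscle. The values of Tgfbr3 and Eng turned positive with scaling on abundant genes (0.30 and 0.48). Of receptors called lower with DESeq2 and named for that, Acvr2a, a type II receptor for activins, was at 4.52, 3.59 and 4.06 CPM in circulating replicates 1, 2 and 3, against 8.48, 36.1 and 68.4 CPM in muscle replicates 1, 2 and 3. Its log2 fold change was -3.21 ± 0.83 (SE, edgeR adjusted p = 0.146), and its circulating libraries stood at 1.27 to 1.75 times background. Acvr2a shares 446 of its 5686 exonic bases in GENCODE M21 with the opposite-strand gene Orc4. Orc4 had 46 to 128 reads in circulating and 262 to 775 reads in muscle libraries, and the labels do not state that strand was used in counting. Acvrl1, a type I receptor (ALK1), was at 17.9 ± 3.77 CPM in circulating FAPs against 63.5 ± 18.8 CPM in muscle FAPs (-1.83 ± 0.55, edgeR adjusted p = 0.171), and Bmpr1a, a type I BMP receptor, at 23.5 ± 15.8 and 82.0 ± 41.6 CPM (-1.80 ± 0.67, edgeR adjusted p = 0.209).

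Other antagonists and ligand-processing proteins had 12 negative and 4 positive values among 16 tested of 22, with a median of -0.31, which was 0.36 with scaling on abundant genes. Fstl1, a follistatin-like secreted glycoprotein, was the most abundant gene of the pathway, at 1714 ± 315 CPM in circulating FAPs against 2915 ± 561 CPM in muscle FAPs (SD, n = 3; -0.77 ± 0.25, edgeR adjusted p = 0.182). Nbl1, a BMP antagonist of the DAN family, was at 70.6 ± 21.2 and 166 ± 38.1 CPM (edgeR adjusted p = 0.198). Bmp1, which despite its name is a procollagen and chordin protease, was at 169 ± 36.4 and 327 ± 82.0 CPM (edgeR adjusted p = 0.215). Bmper and Twsg1, extracellular BMP modulators, were among those called with DESeq2 and were named for that. Bmper was at 18.3 ± 7.74 CPM in circulating FAPs against 87.6 ± 39.2 CPM in muscle FAPs (-2.26 ± 0.60, edgeR adjusted p = 0.148). These were the 5 genes of the list that were lower in every circulating library than in any muscle library. A further 3, named for that, were higher in every circulating library: Vwc2 (3.45 ± 1.17 CPM in circulating FAPs against 1.68 ± 0.696 CPM in muscle FAPs), Tll1 (5.44 ± 0.472 against 3.35 ± 1.46 CPM) and Tll2 (2.61 ± 0.540 against 0.997 ± 0.435 CPM; SD, n = 3). The shares over all genes tested were 11.4% lower and 16.2% higher. Vwc2, Tll1 and Tll2 stood at 0.849 to 1.63 times background in circulating and 0.622 to 2.32 times in muscle libraries. As multiples of background, each of them overlapped between the groups. Their higher CPM could thus not be separated from the higher background of the circulating libraries.

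SMADs and SMURFs, the intracellular transducers and the ubiquitin ligases that degrade them, had 7 negative and 3 positive values among 10, with a median of -0.48, which was 0.30 with scaling on abundant genes. Smad5, a BMP SMAD, was at 25.9 ± 18.9 CPM in circulating FAPs against 77.6 ± 34.3 CPM in muscle FAPs (SD, n = 3; edgeR adjusted p = 0.234), Smurf2 at 29.2 ± 13.0 and 74.1 ± 14.0 CPM (edgeR adjusted p = 0.223), and Smad4, the common partner SMAD, at 29.4 ± 19.5 and 35.3 ± 20.5 CPM (edgeR adjusted p = 0.853). Of 22 other ligands 14 were tested, 3 with negative and 11 with positive values and a median of 1.013, and all 14 averaged under 20 CPM. Over all tested genes the median was 0.77 under 2 CPM and 0.070 at 2 to 20 CPM. In circulating libraries the positive ligands stayed at or below 2.64 times background (Inhbb), apart from Bmp3 and Lefty1, which reached 5.02 and 52.8 times. Gdf9, best known from the oocyte, was at 2.42 ± 0.864 CPM in circulating FAPs against 9.76 ± 4.10 CPM in muscle FAPs (-2.00 ± 0.66, edgeR adjusted p = 0.181). In Gdf11 and Lefty1 single libraries stood apart, with Gdf11 at 3.65, 5.32 and 18.7 CPM in circulating against 5.32, 35.8 and 4.69 CPM in muscle libraries. Lefty1 was at 42.8, 4.52 and 2.09 CPM in circulating against 8.30, 10.97 and 3.23 CPM in muscle libraries. The sign of Gdf11 turned without muscle replicate 2 (0.82), and that of Lefty1 without circulating replicate 1 (-1.25). Mstn, the myostatin gene and a ligand that follistatin binds, was at 0.266 to 2.42 CPM in circulating FAPs against 0.636 to 2.09 CPM in muscle libraries.

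**Figure D5:**
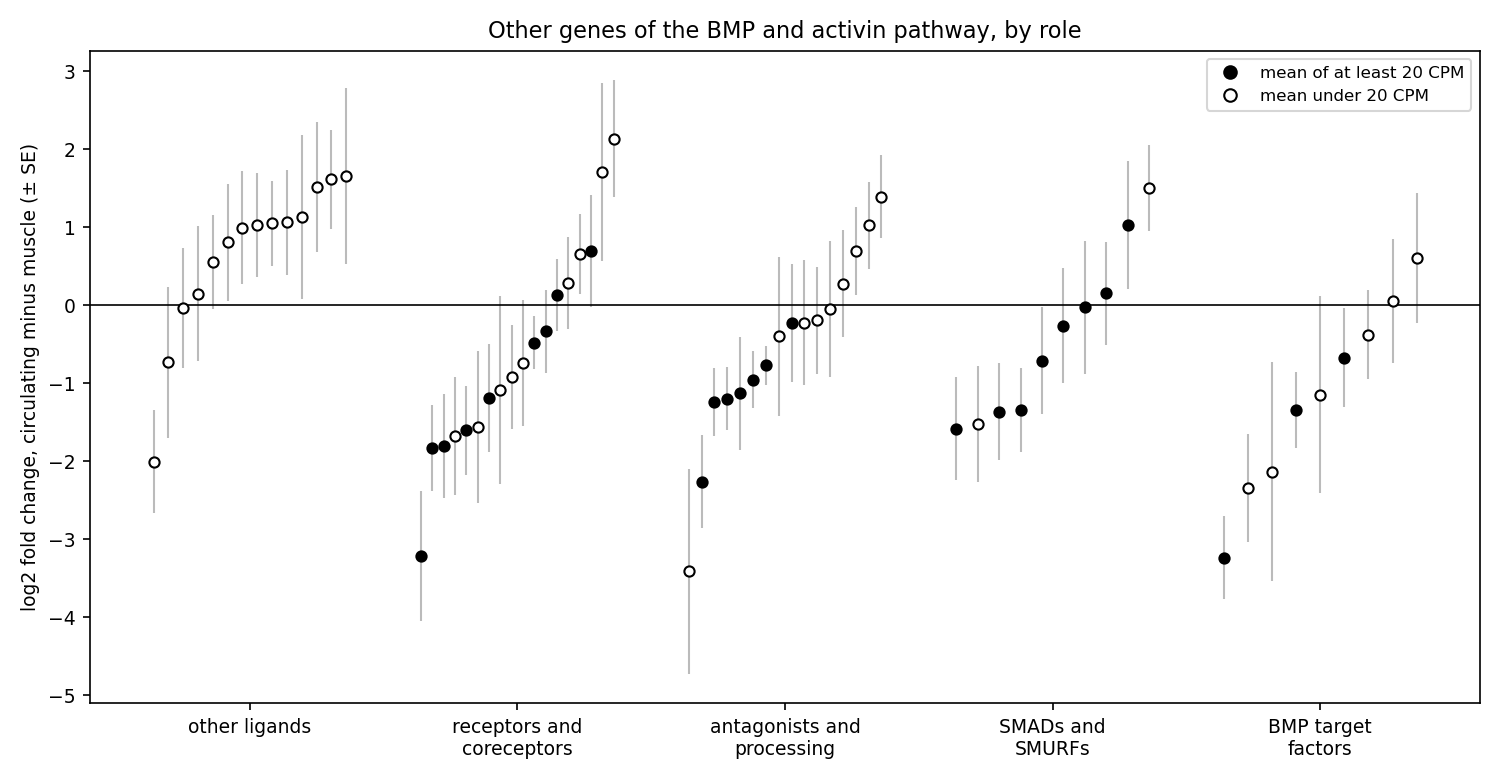
Log2 fold change (circulating minus muscle, with SE) of the 67 tested pathway genes by role, ordered by value within each role, filled where the mean over the 6 libraries was at least 20 CPM. The ligands lie mostly above 0 and are all under 20 CPM, most of them near background in circulating libraries. Of the 27 filled points over all roles, 23 lie below 0, as do 3709 of all 4736 genes of that level.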

How the data were processed

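The authors deposited 1 table of raw read counts per gene symbol. The submitters' processing notes name featureCounts, STAR and Trim Galore, and build GRCm39; versions, options and annotation are not given in the sources used here. Per the labels' protocols, RLT plus buffer served for RNA extraction, and the library kit was TruePrep DNA. Samples were grouped by title. The table held no column without a sample.

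The members and the gene lists were chosen with earlier results of these data known. The fit across all genes used edgeR 4.0.16 in R 4.3.3 (quasi-likelihood F test, robust, TMM scaling, default filterByExpr), with Benjamini-Hochberg adjustment over 20248 genes and a threshold of 0.05, and was tested on simulated data. SE is the log2 fold change divided by the square root of F. CPM use TMM-scaled library sizes. Exon lengths (GENCODE M21, GRCm38, by symbol for 93.0% of symbols) gave levels per kilobase. The background is the median over 412 vomeronasal, taste and trace amine receptor genes of reads per kilobase and per 1000000 reads without 18S. Named pathway genes are any past the threshold and the 3 most abundant per kilobase of each role list.

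Replicates of a group differed far beyond sampling noise (chi-square per degree of freedom of 56.1 to 85.4). Other settings were further scalings, 18S left out, no filter, DESeq2 1.42.0, limma-voom 3.58.1, a replicate block and each library left out.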

Additional observations from a re-analysis of the deposited data

How the results depend on the processing

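The count of genes lower over all genes was 21 with TMM scaling and became 42 with RLE size factors, 1 with upper quartile scaling, 3 with scaling on abundant genes, 154 without the filter, 1364 with DESeq2 and 90 with limma-voom, and 0 to 63 with a library left out. The count higher was 1 and became 2 with library size alone, 3 with scaling on abundant genes, 6 without the filter, 160 with DESeq2 and 2 with limma-voom, and 0 to 2 with a library left out. Without circulating replicate 1 the count lower was 63; without any other library it was 0 or 1. With the replicate block 1 gene was lower and 0 higher. Deviations of same-numbered libraries correlated at -0.014, 0.054 and -5.8e-06. The labels give no pairing. These values cannot decide whether same-numbered libraries came from the same mouse, since other differences between the libraries of a group enter them too. Pathway genes lower numbered 0 and became 1 (Id2) with RLE size factors, library size alone, no filter and limma-voom, 9 with DESeq2, and 0 to 1 with a library left out. The call of Gdf10 held in 7 of 15 settings and was lost with upper quartile scaling, scaling on abundant genes, the replicate block and without any library but circulating replicate 1. With upper quartile scaling and scaling on abundant genes the median of the pathway list (-0.33) was 0.39 and 0.48, and that of the members (-1.51) was -0.90 and -0.87. Upper quartile scaling moved the median of all genes by 0.67 and library size alone by 0.15.

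Signs turned for some named pathway genes that did not pass in edgeR. Eng was at 0.39 and 0.48, Smad4 at 0.41 and 0.51 and Tgfbr3 at 0.22 and 0.30 with upper quartile and abundant-gene scaling, and Smad4 at 0.0315 with library size alone. Id1 was at -0.0715 with RLE size factors, -0.0058 with 18S left out, -0.18 without the filter, -0.14 with DESeq2, -0.26 with limma-voom and -0.31 with the replicate block. With a library left out, Id1 ran from -0.91 to 0.47, Lefty1 from -1.25 to 1.54, Smad4 from -0.85 to 0.25 and Gdf11 from -1.87 to 0.82. Low counts and the background limit Bmp5, Bmp6, Gdf15 and Grem1, which lie near or below background in circulating libraries.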
